A study of Mus musculus with 6 samples.

Results

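Smooth muscle and pericyte genes were followed in mouse quadriceps muscle as 10 genes: Lmod1, Mylk, Acta2, Myh11, Tagln, Cnn1, Myl9, Smtn, Pdgfrb and Rgs5. They were taken as the probe sets that the platform annotation assigns to exactly 1 of these symbols, which gave 19 probe sets out of 34958 with 1 gene, and 10 genes out of 18194. The knockout group held 3 samples of 2-month-old C57/Bl6 mice labelled Pofut1 Knockout, with a skeletal α actin cre transgene and floxed Pofut1 alleles. The control group held 3 samples of the same age and strain that also carried the transgene, but with wild-type Pofut1. Pofut1 encodes the O-fucosyltransferase that modifies EGF-like repeats, among them those of Notch receptors. The skeletal alpha-actin promoter is known to act in skeletal muscle fibres, whereas the RNA came from whole quadriceps, so signal of vessel walls was read from tissue in which the transgene is not aimed at those walls. In such bulk tissue, fewer cells of a type and less RNA per cell cannot be told apart. The labels do not state whether each sample is a different animal, and the p-values reflect only how far these samples scatter, which may be partly technical.

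Mural cells line the outside of endothelial tubes. Smooth muscle cells wrap arteries, arterioles and larger veins and contract when calcium and calmodulin activate myosin light chain kinase, which phosphorylates the regulatory light chain of myosin. Pericytes sit on capillaries, depend on platelet-derived growth factor from endothelium, and are rich in Rgs5 and Pdgfrb in many mouse tissues. Many contractile genes of smooth muscle are switched on by serum response factor (SRF) and its partner myocardin, which act through CArG boxes.

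Promoter windows of RefSeq on build GRCm38.p6 were found for 7 of the 10 genes, and 3 are printed here because they show where CArG boxes lie in contractile members and that the member with the largest difference had none in this window. Each run gives the 250 bases before the start, on the strand of the gene, 5′ to 3′. Capitals mark a CArG box, including forms with 1 G or C among the 6 core bases that are A or T in the full form. The windows are chr19:34255374-34255623 on the minus strand for Acta2, chr2:156775214-156775463 on the plus strand for Myl9, and chr1:135324563-135324812 on the plus strand for Lmod1.
Acta2: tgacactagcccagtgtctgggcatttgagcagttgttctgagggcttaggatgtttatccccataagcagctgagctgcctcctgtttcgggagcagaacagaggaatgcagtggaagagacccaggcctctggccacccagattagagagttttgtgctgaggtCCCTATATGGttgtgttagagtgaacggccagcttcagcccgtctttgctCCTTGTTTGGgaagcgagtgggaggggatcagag
Myl9: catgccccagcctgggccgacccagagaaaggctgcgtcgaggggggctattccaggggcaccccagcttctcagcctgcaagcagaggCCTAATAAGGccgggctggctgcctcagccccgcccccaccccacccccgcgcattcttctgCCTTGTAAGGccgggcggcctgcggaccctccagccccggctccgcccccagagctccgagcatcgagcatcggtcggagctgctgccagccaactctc
Lmod1: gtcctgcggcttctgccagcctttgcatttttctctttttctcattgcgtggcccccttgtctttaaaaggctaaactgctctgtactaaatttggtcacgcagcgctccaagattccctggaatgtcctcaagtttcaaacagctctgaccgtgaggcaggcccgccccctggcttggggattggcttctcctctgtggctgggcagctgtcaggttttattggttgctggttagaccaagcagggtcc

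The boxes were few, and most were not of the full form. Myl9 held the full form CCTAATAAGG with its first base at -161 from the start, and CCTTGTAAGG at -99. Acta2 held CCCTATATGG at -84 and CCTTGTTTGG at -34, each with 1 G or C in the core. The full form, which reads alike on both strands, was present in 1.63% of 32851 windows of 300 bases (250 before and 50 after the start). The form allowing 1 G or C in the core, chosen after these letters were seen, was present in 9.98%, among them 2 of the 7 members. That no box was found for Lmod1, Mylk, Cnn1, Smtn and Rgs5 says only that these letters were not in these windows.

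The arrays differed in a ratio used to follow RNA quality, whose part in the members' values was not tested. The ratio of 3′ over 5′ intensity of Gapdh, used to follow RNA integrity and cDNA length, was 3.70 on knockout replicate 2 and 10.5 on the array labelled control replicate 3, and 1.73 to 1.97 on the other 4 arrays. The array labelled control replicate 3 correlated with the others at 0.940 to 0.945 over all genes, and the other 5 among themselves at 0.980 to 0.991. The targeted gene, Pofut1, had intensities of 220.1, 231.1 and 194.3 in the knockouts, against 301.4, 379.8 and 90.6 in control replicates 1 to 3, so the lowest value carried a control label. Its log2 fold change was -0.02 ± 0.52 (SE, adjusted p = 0.998), and it was -0.66 when that array was left out. On that array Pofut1 was 3.73-fold under the other controls. Of all genes, 8.79% lay more than 1 log2 unit under the other controls there. Replicate 2 of each group had the Xist level of a female, 1349 in the knockout and 1414 in the control, while the other 4 arrays reached at most 67.6. The Y-linked gene Eif2s3y read 40.7 and 41.0 in these samples and at least 1202 in the other 4, so each group held more than 1 animal. Acta1, the defining actin of skeletal fibres, was bright in the labelled tissue, at 9573 to 11119 on the 6 arrays.

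No member passed the threshold, an adjusted p of 0.05 in limma over all 18194 genes, where 0 genes (0%) passed in either direction. At an unadjusted p under 0.05, 1 member (Lmod1, higher) stood beside 1% of all genes that were higher at that level. Of the 10 members, 8 had a higher and 2 a lower mean in the knockout, against 46.3% of all genes with a higher mean. The median log2 fold change was 0.17 over the members and -0.01 over all genes. Groups did not overlap for 3 members (Lmod1, Mylk and Myh11), all higher, against 3.33% of all genes without overlap and higher, and 4.35% of the 9720 genes with a mean above background. For 0 members did the knockout lie wholly below the control, against 5.68% of all genes. Without the array labelled control replicate 3, 9 of the 10 members had a higher mean, against 48% of all genes, their median was 0.14, and again 0 genes (0%) passed. The members were chosen with earlier results of these data known, and Lmod1 and Mylk had been singled out in them, so these counts are a description. Background here is an intensity of 82.6, the 95th percentile of 37 genes restricted to other tissues. Of the members, 9 had a mean above it, 8 were above it on all arrays, and none was left out of the fit.

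**Figure D1:**
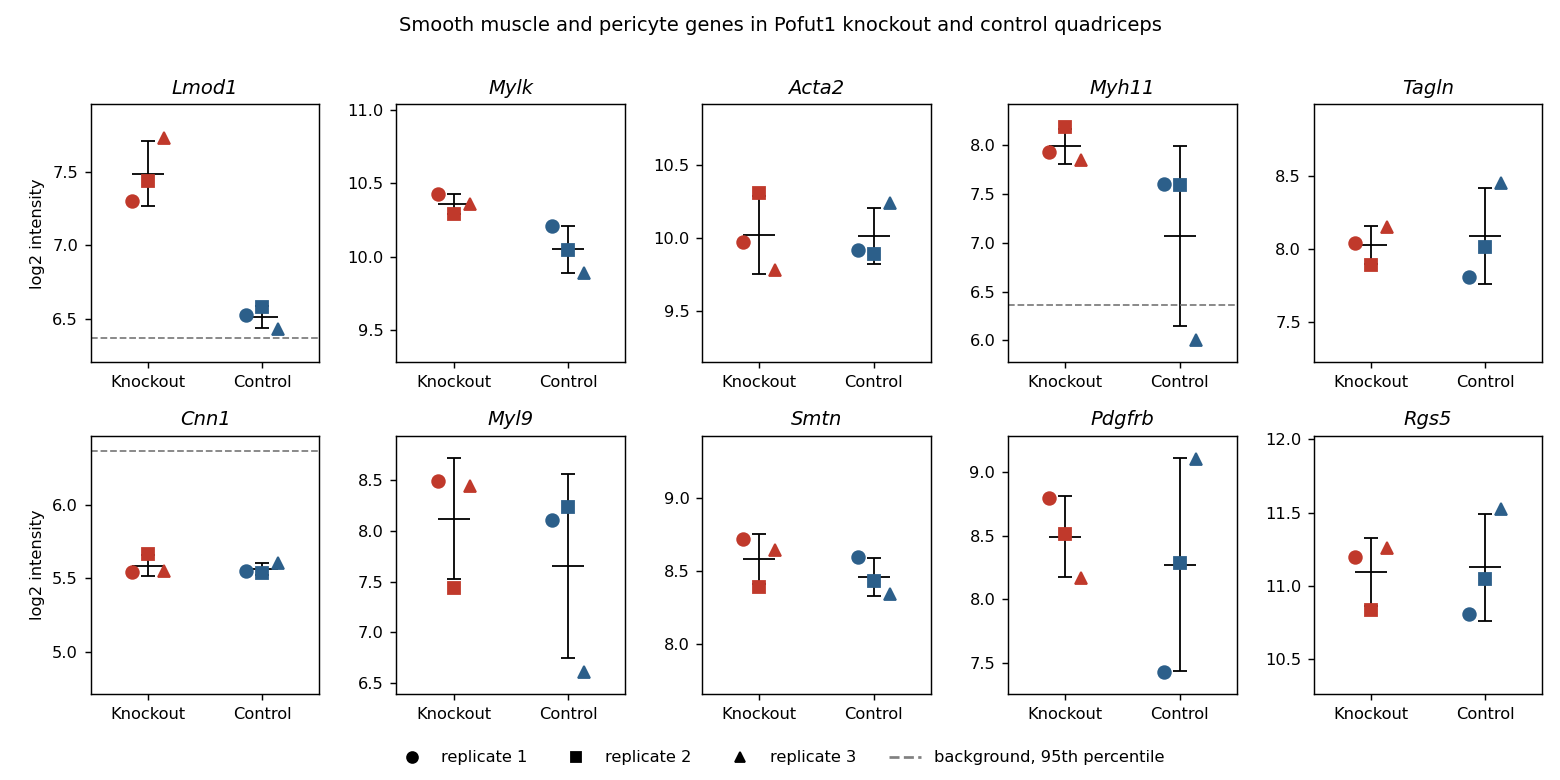
Log2 intensity (vertical axis) of the 10 members on each array, knockout left and control right; symbols give the replicate, the horizontal mark and bars the mean ± SD (n = 3), and the dashed line the background of 6.37. The groups are apart for Lmod1, Mylk and Myh11, the array labelled control replicate 3 is far below its group for Myh11 and Myl9, and Cnn1 lies under the background line on every array.

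Lmod1 encodes leiomodin 1, an actin nucleator of smooth muscle. It had intensities of 157.8, 173.4 and 212.6 in knockout replicates 1 to 3, against 92.3, 95.5 and 86.3 in the 3 control arrays, given in the order of their labels here and below. Every knockout value was above every control value, and the control values lay close to the background of 82.6. Lmod1 was 1.97-fold higher in the knockout, with a log2 fold change of 0.98 ± 0.22 (SE; 95% confidence interval 0.47 to 1.49; unadjusted p = 0.0026, adjusted p = 0.971). It differed little on the array labelled control replicate 3, where it was 1.09-fold lower than the mean of the other controls, and the log2 fold change without that array was 0.94. Over 15 other ways of fitting the data it ranged from 0.86 to 1.07. Its relatives of striated muscle, Lmod2 and Lmod3, had log2 fold changes of 0.11 ± 0.24 and -0.23 ± 0.14, with overlapping groups.

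Mylk encodes the myosin light chain kinase of smooth muscle. By its brightest probe set it had 1378, 1252 and 1314 in knockout replicates 1 to 3, against 1185, 1059 and 949.2 in the control arrays. The lowest knockout value lay just above the highest control value. Mylk had a log2 fold change of 0.31 ± 0.14 (95% confidence interval -0.01 to 0.63; adjusted p = 0.971), or 1.24-fold. A second probe set of Mylk, under background on all arrays but 1, also had no overlap, at 0.27 ± 0.19, and the third, under background throughout, had 0.06 ± 0.09. Mylk2, the kinase of skeletal muscle, had 0.15 ± 0.19, and Mylk4 had 0.01 ± 0.10.

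Myl9, the regulatory light chain of smooth muscle myosin, is the substrate of that kinase. It read 358.3, 173.2 and 347.0 in knockout replicates 1 to 3, against 276.4, 301.0 and 98.1 in the control arrays. In each group 1 array was far below the others, and these were the arrays with the high Gapdh ratios. Knockout replicate 2 was 2.04-fold lower than the other knockouts, and the array labelled control replicate 3 was 2.94-fold lower than the other controls. Over all genes, 0.242% were more than 1 log2 unit lower on both arrays in this way. The part that RNA quality plays in Myl9 was not tested. The log2 fold change of Myl9 was 0.47 ± 0.50 (95% confidence interval -0.72 to 1.65; adjusted p = 0.971). When the array labelled control replicate 3 was left out it was -0.05. It was 0.29 without both arrays with a high Gapdh ratio, and 0.09 with that ratio as a covariate. The non-muscle light chain genes Myl12a and Myl12b had 0.24 ± 0.20 and -0.23 ± 0.19. Without the array labelled control replicate 3, Myl12a had 0.44.

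Myh11, the smooth muscle myosin heavy chain, is among the most restricted markers of that cell type. By its brighter probe set it had 244.5, 292.0 and 230.2 in knockout replicates 1 to 3, against 195.0, 193.5 and 64.2 in the control arrays. The groups did not overlap, and the lowest control value was below background and 3.03-fold under the other controls. The log2 fold change was 0.92 ± 0.45 (95% confidence interval -0.14 to 1.98; adjusted p = 0.971). Without the array labelled control replicate 3 it was 0.39 ± 0.16, or 1.31-fold, and the adjusted p was 0.802. Of all genes, 8.79% lay more than 1 log2 unit under the other controls on that array. The second probe set of Myh11 was below background on every array, with a log2 fold change of -0.05 ± 0.12, so that the mean of both gave 0.43.

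**Figure D2:**
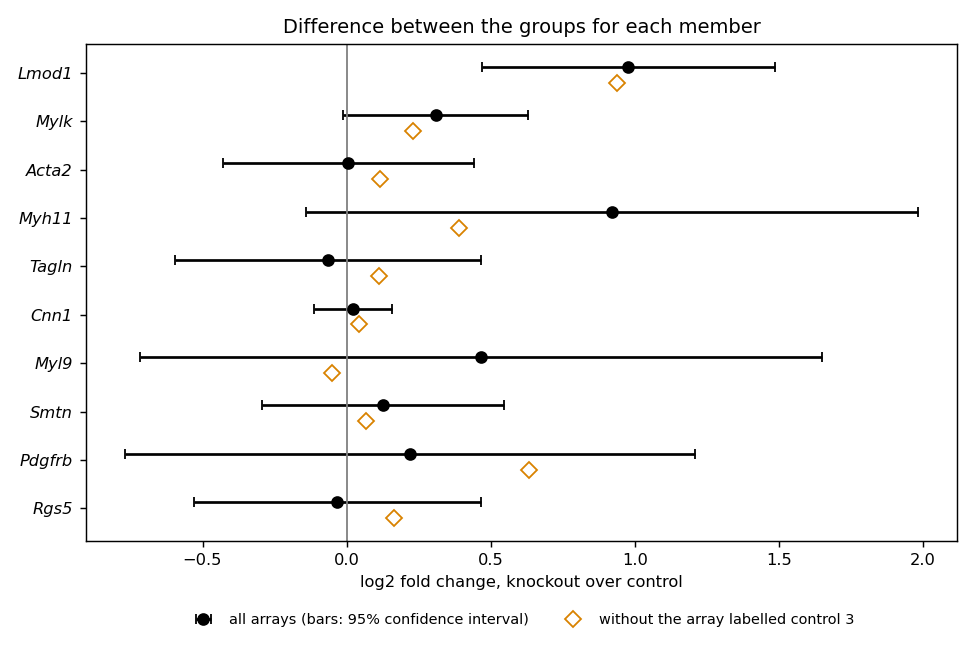
Log2 fold change of each member, knockout over control: filled circles with bars are the fit over all 6 arrays with its 95% confidence interval, open diamonds the fit without the array labelled control replicate 3. The interval of Lmod1 alone lies clear of 0, and Myh11, Myl9 and Pdgfrb move most when that array is left out.

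Acta2, smooth muscle alpha-actin, is the most widely used marker of mural cells. It read 1005, 1268 and 879.7 in knockout replicates 1 to 3, against 968.8, 947.6 and 1206 in the control arrays. The groups overlapped, and the highest value of each group was on its array with the high Gapdh ratio. Acta2 thus had a log2 fold change of 0.01 ± 0.18 (95% confidence interval -0.43 to 0.44; adjusted p = 0.998). The probe set carries the suffix _s_at, which on this platform marks a set that may also bind transcripts of other genes. The other 2 Acta2 probe sets were below background on every array. Acta1, whose protein is closely related and which skeletal fibres make in great amount, had 0.13 ± 0.08, the cardiac form Actc1 had -0.07 ± 0.19, and the enteric form Actg2 was below background on every array. How much of the Acta2 signal came from other actins was not tested.

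Tagln encodes transgelin, or SM22 alpha, an actin-binding protein of smooth muscle. It read 263.5, 236.8 and 283.3 in knockout replicates 1 to 3, against 223.9, 258.7 and 349.2 in the control arrays. The groups overlapped, and the array labelled control replicate 3 was highest. Between groups the log2 fold change was -0.06 ± 0.22 (95% confidence interval -0.60 to 0.47; adjusted p = 0.981) and 0.11 without that array. The related gene Tagln2 had -0.21 ± 0.21.

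Cnn1, calponin 1, which binds actin and slows actomyosin in smooth muscle, was not measured above background. It read 46.6, 50.8 and 46.8 in knockout replicates 1 to 3, against 46.8, 46.4 and 48.8 in the control arrays. No difference can be read at this level (log2 fold change 0.02 ± 0.06; adjusted p = 0.976). Its relatives Cnn2 and Cnn3, which are also made outside smooth muscle, were above background and had 0.10 ± 0.24 and 0.43 ± 0.17. Groups did not overlap for Cnn3 (adjusted p = 0.971).

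Smtn encodes smoothelin, a cytoskeletal protein of contractile smooth muscle. It read 422.0, 335.6 and 399.3 in knockout replicates 1 to 3, against 388.1, 345.2 and 325.1 in the control arrays. The groups overlapped, with knockout replicate 2 under 2 of the controls. Smtn had a log2 fold change of 0.13 ± 0.18 (95% confidence interval -0.29 to 0.54; adjusted p = 0.971).

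Pdgfrb, the receptor through which pericytes answer platelet-derived growth factor B, varied widely among the controls. By its brighter probe set it had 444.8, 365.3 and 287.5 in knockout replicates 1 to 3, against 173.1, 311.5 and 548.5 in the control arrays. The highest and the lowest of the 6 values were both controls. The log2 fold change was 0.22 ± 0.42 (95% confidence interval -0.77 to 1.21; adjusted p = 0.971). Without the array labelled control replicate 3 it was 0.63 ± 0.30, and without control replicate 1 it was -0.20. The second probe set had the same order among controls, at 114.5, 194.1 and 243.4, and a log2 fold change of 0.10 ± 0.32. Pdgfra, the receptor of fibroblasts, had -0.28 ± 0.23, and -0.05 without the array labelled control replicate 3.

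Rgs5 shortens signals of G protein-coupled receptors and is a leading pericyte transcript. Its probe set with the highest mean, here probe set 1 in the order of identifiers, read 2345, 1823 and 2445 in knockout replicates 1 to 3, against 1794, 2118 and 2941 in the control arrays. The groups overlapped, and the highest value was on the array labelled control replicate 3. The log2 fold change was -0.03 ± 0.21 (95% confidence interval -0.53 to 0.47; adjusted p = 0.994).

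Other probe sets of Rgs5 gave another picture on the arrays with high Gapdh ratios. Probe set 3 had 2752, 505.3 and 1643 in knockout replicates 1 to 3, against 2217, 3155 and 374.6 in the control arrays. Knockout replicate 2 was 4.21-fold under the other knockouts, and the array labelled control replicate 3 was 7.06-fold under the other controls. A fall of more than 1 log2 unit on both arrays was seen in 0.584% of the 34958 probe sets with 1 gene. Probe set 4 was 1.55-fold and 2.74-fold lower on these arrays, and probe set 2 was 1.87-fold and 1.34-fold lower. On the array labelled control replicate 3, therefore, Rgs5 was the highest of all arrays by 1 probe set and the lowest by the other 3. Probe sets 2, 3 and 4 had log2 fold changes of 0.53 ± 0.33, -0.07 ± 0.90 and 0.62 ± 0.44, and the groups overlapped for each. Probe set 4 carries the suffix _s_at, described above for Acta2, and probe set 2 the suffix _x_at. Which of the 4 follows the Rgs5 transcript best was not tested.

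**Figure D3:**
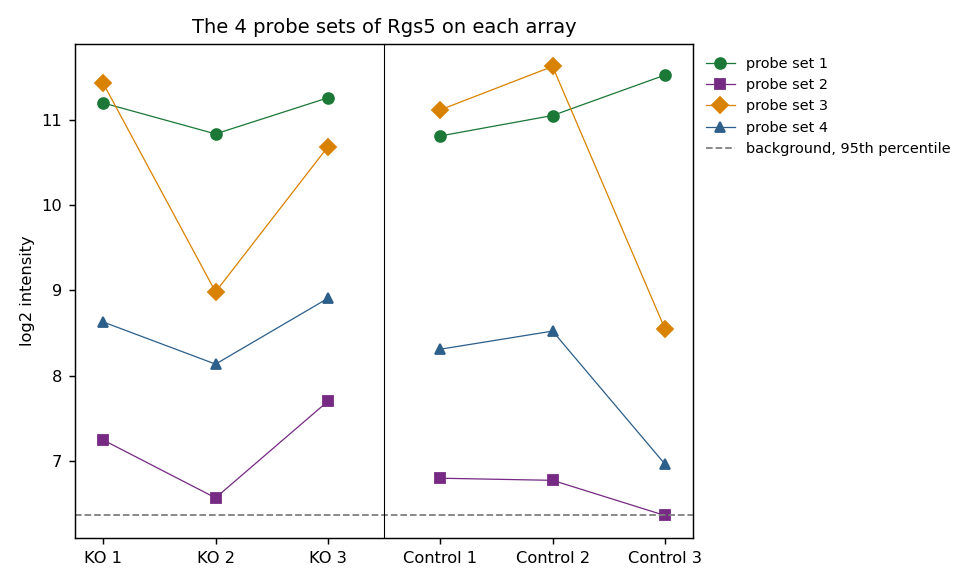
Log2 intensity (vertical axis) of the 4 Rgs5 probe sets on each array, knockout left and control right of the line; the dashed line is the background of 6.37. Probe set 3 falls steeply on knockout replicate 2 and on the array labelled control replicate 3, whereas probe set 1 is highest on the last.

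**Figure D4:**
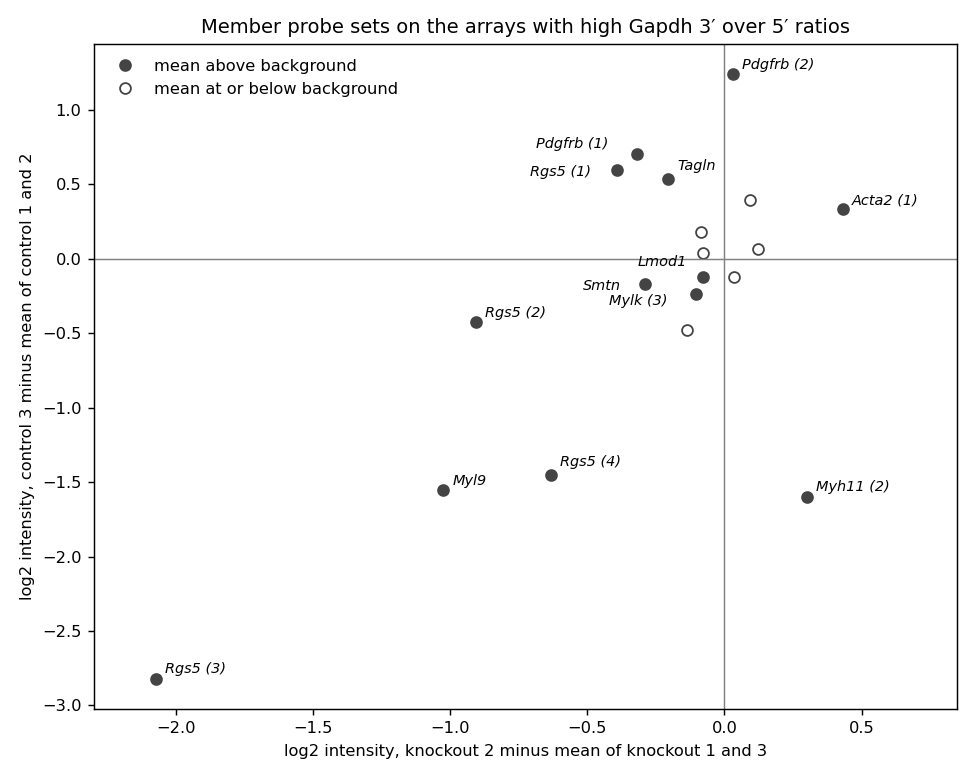
Each of the 19 member probe sets on the arrays with high Gapdh ratios: log2 intensity of knockout replicate 2 minus the mean of the other knockouts (horizontal) and of the array labelled control replicate 3 minus the mean of the other controls (vertical). Filled points have a mean above background, and numbers in brackets count the probe sets of a gene in order of their identifiers. Myl9 and 3 Rgs5 probe sets lie at the lower left, low on both arrays, while Acta2 lies at the upper right and Lmod1 near the centre.

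The members did not vary together as 1 block. Over the 6 arrays, Tagln and Rgs5 had a Pearson correlation of 0.971, and 0.963 over 5 arrays without the one labelled control replicate 3. Acta2 and Myl9 ran opposite to each other, at -0.835 and -0.889. Lmod1 and Mylk had 0.819 and 0.778, and Mylk and Myh11 had 0.844 and 0.621. Myh11 and Tagln had -0.806 with the array labelled control replicate 3 and 0.047 without it. These are descriptions over few arrays, which share the RNA quality and scaling of each sample.

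The genes most like the mean of the 10 members were looked up among 9711 others with a mean above background. Over 6 arrays they were Polr3gl, Otud1, Marcks, Fosl2 and Pald1, with Pearson correlations of 0.977 to 0.981. Over 5 arrays without the one labelled control replicate 3 they were Pald1, Adgrl4, Parp8, Apol6 and Otud1, at 0.989 to 0.997. Otud1 read 2251, 1403 and 1607 in knockout replicates 1 to 3, against 658.0, 901.8 and 727.4 in the control arrays. Pald1 read 132.1, 114.4 and 124.8 in the knockouts, against 95.4, 102.7 and 99.3 in the controls. Neither gene passed the threshold. These are the highest of 9711 correlations over few arrays, where high values are common. The mean of the members was higher in every knockout than in every control, so genes with groups apart score high. No relation of these genes to mural cells was tested.

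A wider list of 28 other smooth muscle and pericyte markers was nearly even. Of these, 16 had higher and 12 lower values in the knockout, 0 passed in either direction, and the median log2 fold change was 0.04. Ppp1r12b, a regulatory subunit of myosin phosphatase that is also made in striated muscle, read 772.5, 707.0 and 678.1 in the knockouts, against 923.2, 951.3 and 1264 in the controls, with a log2 fold change of -0.53 ± 0.17. Pcp4l1 had 0.36 ± 0.14 and was below background on every array. The channel genes Abcc9 and Kcnj8, listed as pericyte markers, had 0.07 ± 0.14 and 0.19 ± 0.20. Other pericyte markers of the list went either way. Mcam and Anpep had 0.10 ± 0.28 and 0.27 ± 0.34. Lower means were seen for Cspg4 (-0.20 ± 0.26), Vtn (-0.13 ± 0.20) and Ndufa4l2 (-0.26 ± 0.23). Without the array labelled control replicate 3, Mcam, Anpep, Cspg4, Vtn and Ndufa4l2 had 0.29, 0.0005, 0.04, 0.04 and -0.05. Myocd, the coactivator that defines smooth muscle, and the potassium channel subunit Kcnmb1 were below background on every array. Several of these markers, such as Des, Tpm1 and Tpm2, are also made by skeletal fibres, and their summed level of 35253 to 37073 in the knockouts and 34544 to 35729 in the controls rests largely on them.

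Genes that act on the members' pathways did not pass either. Of 22 genes of SRF and myocardin control, 15 were higher and 7 lower (median log2 fold change 0.14, and -0.05 without the array labelled control replicate 3). Mrtfa, a myocardin-related coactivator of SRF, read 316.1, 254.5 and 247.5 in the knockouts, against 219.3, 206.9 and 86.4 in the controls. Its groups did not overlap, and the log2 fold change was 0.78 ± 0.38 and 0.35 without the array labelled control replicate 3. Srf itself had -0.44 ± 0.36, and -0.06 when that array was left out. Of 21 measured genes of light chain phosphorylation and RhoA signalling, which include Mylk and Myl9, 12 were higher and 9 lower (median 0.09, and 0.04 without the array labelled control replicate 3). Ppp1cb, the catalytic subunit of myosin phosphatase, had 0.42 ± 0.14 without overlap, while its partner Ppp1r12b had the opposite sign.

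Of 22 genes of PDGF and Notch signalling to mural cells, 15 were higher and 7 lower (median 0.08, and 0.03 without the array labelled control replicate 3). Pdgfb, the ligand of Pdgfrb made by endothelium, had 0.32 ± 0.19. Notch3, the Notch receptor of mural cells, read 259.0, 591.1 and 200.6 in the knockouts, against 191.2, 223.6 and 137.8 in the controls. Its log2 fold change was 0.79 ± 0.42, and the high value was that of knockout replicate 2. Of 16 measured RGS and G protein genes, 5 were higher and 11 lower (median -0.03). Leaving out the array labelled control replicate 3 gave 2 of 16 higher and a median of -0.15. Rgs4 was lower without overlap at -0.60 ± 0.28, and at -0.32 when that array was left out. Gnaq, a G protein that couples contractile receptors to calcium, was higher without overlap at 0.53 ± 0.20. None of the genes in these lists passed over all genes.

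Markers of other cell types were read for the same arrays. Of 20 endothelial markers, 16 had higher and 4 lower values (median log2 fold change 0.22), with a summed level of 9941 to 12907 in the knockouts and 9984 to 10778 in the controls. Cdh5, the endothelial cadherin, had 0.57 ± 0.19 and Vwf had 0.38 ± 0.22. Groups did not overlap for 1 higher endothelial marker, Cdh5, and for 1 lower one, against 3.33% and 5.68% of all genes. Of 12 fibroblast markers, 6 were higher and 6 lower (median 0.03), with sums of 15408 to 22872 in the knockouts and 16854 to 20630 in the controls, and Thy1 had -0.61 ± 0.21 and Fbln1 0.43 ± 0.30. Leaving out the array labelled control replicate 3 gave 2 of 12 fibroblast markers higher, a median of -0.12, and 0.14 for Fbln1. Of 16 skeletal fibre markers, 15 were higher (median 0.10), with sums of 133350 to 138560 in the knockouts and 122130 to 129460 in the controls. Tnnt3 had 0.19 ± 0.08 and Ttn 0.17 ± 0.10. Groups did not overlap for 4 of the 16 fibre markers, all higher, against 3.33% of all genes. Acta1, Tnnt3 and Ttn were among them, so groups apart were not particular to the members.

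Of the lists plotted, slow fibre markers varied most between arrays. All 7 were higher in the knockout mean (median 0.87), with sums of 8421 to 13976 in the knockouts and 2057 to 13605 in the controls, the lowest being control replicate 1. With each gene centred on its mean, the list averaged -2.29 on control replicate 1. It averaged 0.20 and 0.90 on the arrays labelled control replicates 2 and 3, and 0.10 to 0.95 in the knockouts. The difference of this list thus rests largely on control replicate 1. Tnnc1 had 1.26 ± 0.79 and Myl3 1.38 ± 0.91. When the array labelled control replicate 3 was left out the median was 1.54, and Myl3 had 2.18. Adipocyte markers (6 of 6 higher, median 0.46) had sums of 5246 to 9450 in the knockouts and 5578 to 6862 in the controls, with Retn at 0.35 ± 0.36 and Pparg at 0.57 ± 0.37. Leaving out that array gave 4 of 6 adipocyte markers higher and a median of 0.10, with 0.10 for Retn and 0.21 for Pparg. Macrophage markers (7 of 10 lower, median -0.11) had sums of 6998 to 11700 in the knockouts and 8270 to 13578 in the controls, with Folr2 at -0.63 ± 0.25 and C1qb at -0.44 ± 0.24. Leaving out that array gave 0 of 10 macrophage markers higher and a median of -0.38.

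Satellite cell and regenerating fibre markers (5 of 8 lower, median -0.21) had sums of 1251 to 1659 in the knockouts and 1264 to 1742 in the controls, with Chrna1 at -0.41 ± 0.25 and Chrng at -0.33 ± 0.19, or -0.64 and -0.16 without the array labelled control replicate 3. All 5 measured markers of visceral smooth muscle were below background on every array, among them Foxf1 and Chrm3, with sums of 264 to 279 in the knockouts and 264 to 291 in the controls. In none of these lists did a gene pass over all genes. The part of other cell types in the members' values was not tested.

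**Figure D5:**
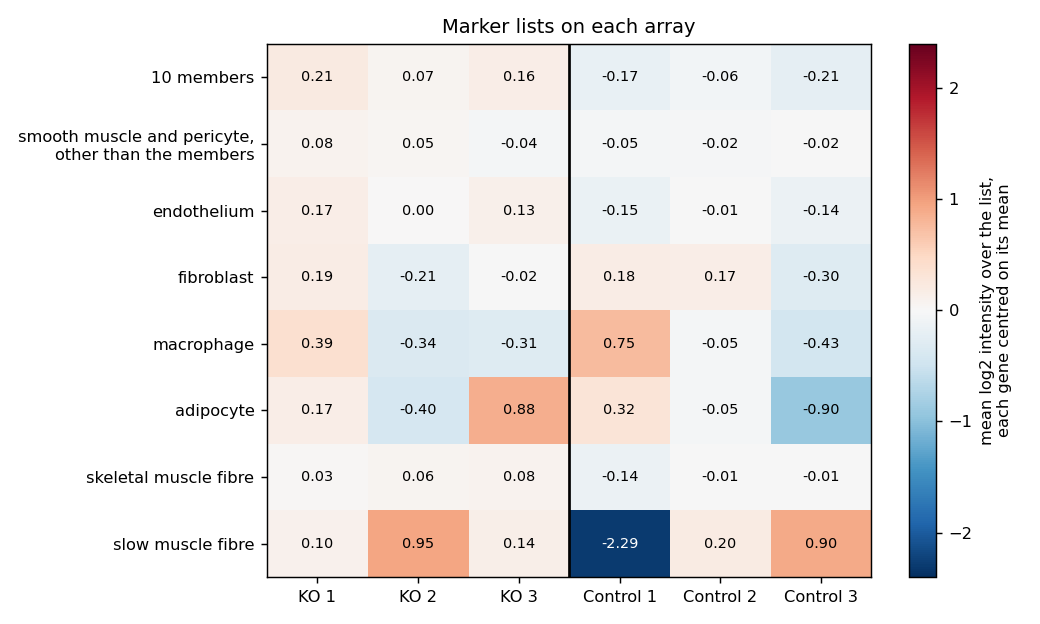
Mean log2 intensity over each marker list on each array, every gene centred on its mean over the 6 arrays; red is above and blue below that mean, with the knockouts left of the line and the controls right. The 10 members lie between 0.07 and 0.21 in the knockouts and between -0.21 and -0.06 in the controls, beside 0.00 to 0.17 and -0.15 to -0.01 for endothelium, while slow fibre markers span a far wider range.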

How the data were processed

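Quadriceps RNA of 6 samples was read on 1 Affymetrix array each, after labelling as biotinylated cDNA, per the labels' protocols. The deposited values are probe set intensities on a linear scale, 37.2 to 16069, with array medians of 56.6 to 58.6. GCOS and RMA were used by the authors, per the submitters' processing notes; no version and no later scaling is given in the sources used here. RMA summaries compress differences of dim genes, and the number of arrays limits the precision.

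Of 45101 probe sets, 34958 had 1 gene symbol, 932 several and 9211 were unlisted. Of the single-gene probe sets, 34754 matched the RefSeq table of GRCm38.p6 by Entrez identifier. Each of 18194 genes was represented by its probe set with the highest mean. The log2 of each intensity, without a pseudocount, entered limma 3.58.1 under R 4.3.3 (linear model with group only, empirical Bayes with a trend). Its p-values are two-sided and were adjusted over all genes by Benjamini-Hochberg. On simulated data with 200 of 18194 genes changed, the fit recovered 27% of log2 changes of 1 and 72% of changes of 2, with 3 unchanged genes called. The changed genes were drawn from those with a mean above background. Noise was independent between genes, so deviations that many genes share on 1 array were not simulated. An exact permutation test of 3 against 3 cannot go below 0.1 and was not used. Named genes are the members, their relatives, Pofut1 and Acta1 as checks, and up to 2 genes with the smallest p from each list. The 5 genes most like the members under each fit and defining markers at background are named too. Srf, Abcc9, Kcnj8, Mcam, Anpep, Cspg4, Vtn, Ndufa4l2, Xist, Eif2s3y, Des, Tpm1 and Tpm2 were named after their values were seen. The members and lists were chosen with earlier results of these data known.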

Additional observations from a re-analysis of the deposited data

How the results depend on the processing

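With 0 genes and 0 members past the threshold over all 6 arrays (469 genes at an unadjusted p under 0.05), none passed under any alternative run, which included leaving out each array in turn, so those alternatives bear on size and direction only. With array weights Lmod1 had an adjusted p of 0.225, the lowest of any member under any of them. Lmod1, Mylk, Myh11 and Smtn kept a log2 fold change above 0 under the 15 alternatives with 1 value per gene, Myh11 at 0.29 to 1.19. The median of the members, 0.17, was 0.22 with array weights, 0.22 over genes above background, 0.10 over every probe set, 0.28 without both arrays with a high Gapdh ratio, 0.10 with that ratio as a covariate, and 0.062 to 0.22 when 1 array was left out.

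Replicate numbers are shared by the groups, and replicate 2 had the Xist level of a female in both. Deviations from the group means correlated at 0.194, -0.146 and -0.114 for numbers 1 to 3. The correlation was 0.216 between knockout replicate 2 and the array labelled control replicate 3, the arrays with high Gapdh ratios. Deviations tied to those arrays enter this check, so it does not settle whether the numbers pair the samples. With the replicate number as a block the median was 0.17, 0 genes passed, and Lmod1 had an unadjusted p of 0.0119.

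The sign turned for members near 0, and also for Myl9 and Pdgfrb, which had 0.47 and 0.22 over all 6 arrays. The cause was not tested. Acta2 had -0.014 with quantile normalization, -0.0019 with the mean of probe sets, -0.027 without both arrays with a high Gapdh ratio, and -0.14 to 0.13 when 1 array was left out. Tagln had 0.17 with array weights, 0.18 without both arrays, 0.018 with the covariate, and -0.21 to 0.11 when 1 array was left out. Rgs5 had 0.26 with array weights, 0.26 with the mean of probe sets, 0.30 without both arrays, 0.047 with the covariate, and -0.19 to 0.17 when 1 array was left out. Leaving out 1 array also turned Cnn1 (-0.018 to 0.044), Myl9 (-0.052 to 0.81) and Pdgfrb (-0.20 to 0.63). Signal close to background limits Cnn1, and the controls of Lmod1.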
